A study of Mus musculus with 9 samples.

Results

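Endothelial cells line blood and lymphatic vessels, and the 36 genes described here are markers and regulators of these cells. They were taken by name from a fixed list, which was chosen with earlier results of these data known. The brightest probe set stands for each gene, and the list holds 36 of the 18194 genes the arrays measured. Of the 36, 30 mark blood vessel endothelium in general, 4 (Apln, Esm1, Dll4 and Angpt2) mark tip cells, and 2 (Prox1 and Flt4) mark lymphatic endothelium.

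The tumours came from injected 67NR/CMVLUC, 66cl4/CMVLUC or 4T1/CMVLUC cells, which are mammary carcinoma cell lines of the mouse. They were raised in female BALB/c mice aged 7 to 9 weeks, with 3 mice for a line. A mouse received 1000000 viable cells in a mammary gland on the right side, the primary tumour was removed on day 15, and total RNA of the laser-captured tumour part of its sections was put on 1 Affymetrix array. Each line is a single cell line, so a difference between lines is a difference between those cell lines' tumours, and the endothelial cells in them came from the mouse. Per its title, the series addresses epithelial to mesenchymal transition in spontaneous metastasis, and the 3 lines were compared with each other. No untreated or tumour-free tissue is among the arrays used here.

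Blood vessels grow into a tumour largely by sprouting. Tip cells lead a sprout towards vascular endothelial growth factor (VEGF), Notch signalling from their ligand Dll4 holds back the neighbouring stalk cells, and the angiopoietins with their receptor Tek govern how firmly a vessel is sealed and covered by pericytes. Lymphatic vessels grow under VEGF-C, through the receptor Flt4, and their identity is set by the transcription factor Prox1.

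Signals are the deposited log2 values. A difference between lines is a log2 difference of means over 3 mice with its standard error (SE) from limma's moderated test, and a gene was called at a Benjamini-Hochberg adjusted p under 0.05 over all 13410 genes tested. An adjusted p below comes from that fit unless another is named. The others leave out an array, add a covariate, or change the processing or the probe sets used, and each was adjusted within itself. All 36 genes were measured, and 35 passed the filter on low values, which asked for a signal above the 40th percentile of the array on at least 3 arrays. Prox1 did not. In captured tissue, fewer endothelial cells and less RNA of a gene per endothelial cell cannot be told apart. The carcinoma cells are mouse cells too, so RNA of a gene from carcinoma or blood cells cannot be told apart from endothelial RNA either.

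The mean signal was highest in 67NR tumours for 32 of the 35 tested genes, where 32.7% of all tested genes had their highest mean there, and the exceptions were Vwf, Flt1 and Eng. The F-test among the 3 lines called 34 of the 35 tested genes, all but Myct1, where it called 56.6% of all tested genes. Between 4T1 and 67NR tumours 39.9% of all tested genes were called, and 30 of the 35 tested genes were lower in 4T1, where 20.5% of all tested genes were, and 1 was higher, where 19.4% of all were. Their median log2 difference was -1.44, against -0.03 over all tested genes. Between 66cl4 and 67NR tumours 36.1% of all tested genes were called, and 31 of 35 were lower in 66cl4, against 16% of all, and 1 was higher, against 20%, with a median of -1.73 against 0.01. The 2 comparisons share the 67NR arrays, so they are not separate evidence. The gene that was higher in both was Vwf. Of the 30 blood vessel genes alone, 26 were lower in 4T1 and 26 in 66cl4.

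Signals on the arrays of the lines compared did not overlap for 31 of the 35 genes in the first comparison and for 34 in the second, where 49.7% and 52.5% of all tested genes did not. The median signal of the 30 blood vessel genes was 8.51, 8.52 and 8.67 on the 67NR arrays, 6.92, 6.91 and 7.33 on the 66cl4 arrays and 7.06, 7.26 and 7.35 on the 4T1 arrays. Array 3 of 66cl4 gave the highest signal of its line for 26 of the 30 genes. Array 1 of 67NR did so for 20, and array 2 of 67NR gave the lowest of its line for 22. Array 2 of 66cl4 and array 1 of 4T1 each gave the lowest of their line for 17.

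**Figure D1:**
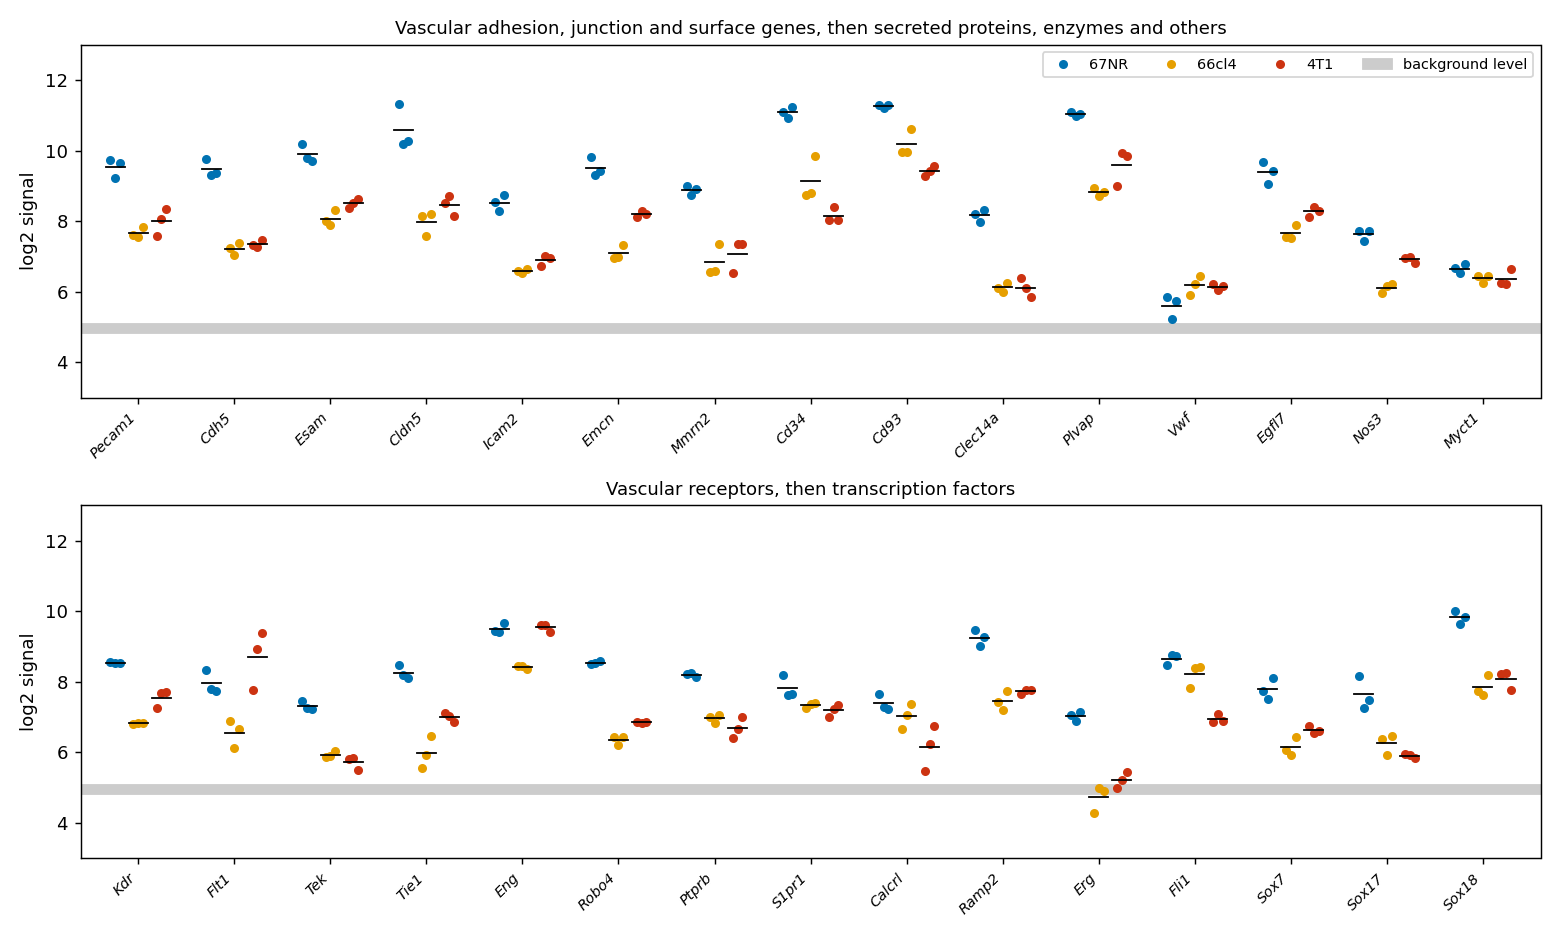
Deposited log2 signals of the 30 blood vessel genes on each of the 9 arrays, with 1 point per array and 1 colour per line. The 67NR points lie above those of the other lines for most genes, while Vwf lies lowest in 67NR, and signals of different genes are not comparable because they come from different probe sets.

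The adhesion, junction and surface molecules moved together. All 11 fell in 4T1 and all 11 fell in 66cl4 relative to 67NR, with medians of -1.82 and -2.04. Cdh5, the cadherin of endothelial adherens junctions, had signals of 9.76, 9.30 and 9.37 on the 67NR arrays, 7.23, 7.04 and 7.37 on the 66cl4 arrays and 7.33, 7.28 and 7.47 on the 4T1 arrays. The 67NR arrays were the highest and did not overlap the others, while those of 66cl4 and 4T1 overlapped. The difference from 67NR was -2.11 ± 0.14 (adjusted p 3.87e-06) in 4T1, or 4.33-fold, and -2.26 ± 0.14 (adjusted p 4.23e-06) in 66cl4, or 4.8-fold.

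Pecam1, an adhesion molecule of endothelial contacts that leukocytes and platelets also carry, had signals of 9.72, 9.23 and 9.65 on the 67NR arrays, 7.61, 7.54 and 7.85 on the 66cl4 arrays and 7.58, 8.06 and 8.34 on the 4T1 arrays. Its 67NR arrays again stood above the rest. The difference was -1.54 ± 0.20 (adjusted p 0.000256) in 4T1 and -1.87 ± 0.20 (adjusted p 0.000105) in 66cl4. Cldn5, a tight junction claudin, differed from 67NR by -2.14 ± 0.30 in 4T1 and -2.62 ± 0.30 in 66cl4, and it had the widest spread among the 67NR arrays (SD 0.64, n = 3), from 10.18 to 11.33. Plvap, which forms the diaphragms of fenestrated endothelium, fell by 1.44 in 4T1 and by 2.22 in 66cl4 on the log2 scale.

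Cd34, a sialomucin of endothelium and of progenitor and stromal cells, showed the largest fall of this group in 4T1. Its signals were 11.08, 10.93 and 11.24 on the 67NR arrays, 8.75, 8.80 and 9.84 on the 66cl4 arrays and 8.03, 8.40 and 8.04 on the 4T1 arrays. The 3 lines did not overlap, and 4T1 was lowest. The difference from 67NR was -2.92 ± 0.26 (adjusted p 2.35e-05) in 4T1, or 7.58-fold, and -1.95 ± 0.26 (adjusted p 0.00038) in 66cl4. The remaining 6 members of the group, the junction molecule Esam, the adhesion molecule Icam2, the sialomucin Emcn, the matrix protein Mmrn2 and its receptors Clec14a and Cd93, differed by -2.05 to -1.30 in 4T1 and by -2.42 to -1.08 in 66cl4.

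**Figure D2:**
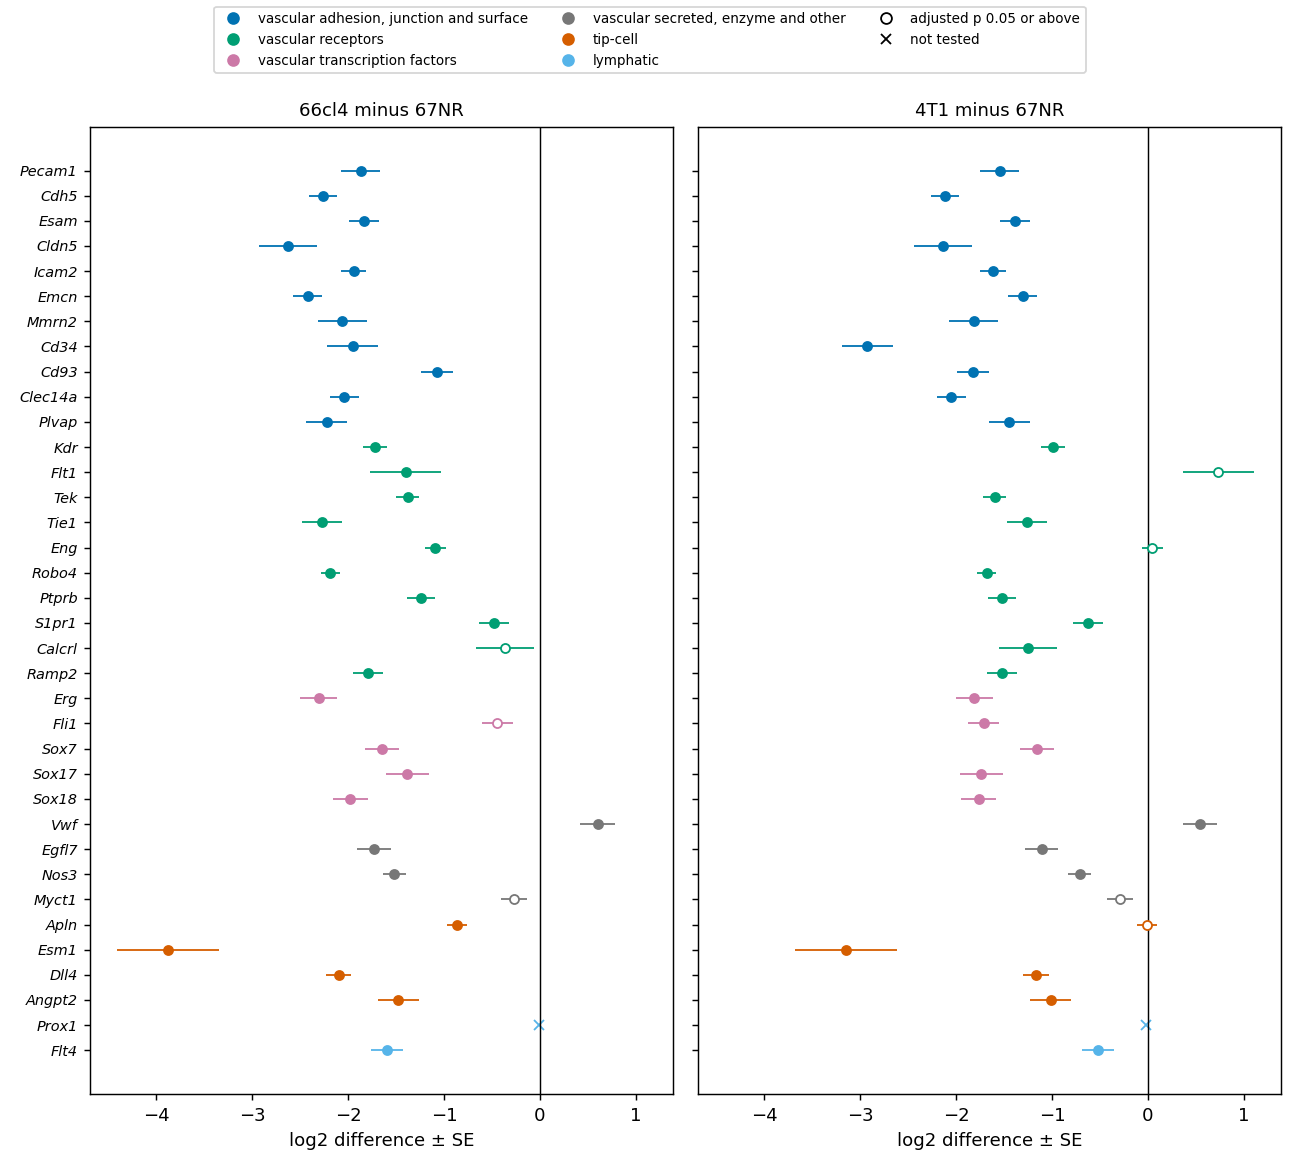
Log2 differences from 67NR with SE bars (n = 3 mice per line) for 66cl4 at left and 4T1 at right, coloured by role, with open circles for genes at an adjusted p of 0.05 or above and a cross for Prox1, which was not tested. Most points lie left of 0 in both panels, while Flt1, Eng and Apln lie near or right of 0 for 4T1 with open circles.

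Of the 10 receptors, 8 fell in 4T1 and 9 in 66cl4. Robo4, an endothelial guidance receptor that stabilises vessels, had among the smallest spreads, with signals of 8.50, 8.53 and 8.60 on the 67NR arrays, 6.43, 6.20 and 6.44 on the 66cl4 arrays and 6.85, 6.85 and 6.88 on the 4T1 arrays. Its 3 lines did not overlap, in the order 67NR, 4T1, 66cl4. It differed from 67NR by -1.68 ± 0.10 (adjusted p 1.47e-06) in 4T1 and by -2.18 ± 0.10 (adjusted p 8.76e-07) in 66cl4.

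The main VEGF receptor Kdr gave signals of 8.58, 8.52 and 8.54 on the 67NR arrays, 6.80, 6.84 and 6.84 on the 66cl4 arrays and 7.27, 7.69 and 7.70 on the 4T1 arrays. No 2 lines overlapped and the order was that of Robo4. Kdr fell by 0.99 ± 0.12 (adjusted p 0.000189) in 4T1 and by 1.72 ± 0.12 (adjusted p 9.09e-06) in 66cl4. The angiopoietin receptor Tek differed by -1.60 ± 0.12 and -1.38 ± 0.12, and its partner Tie1 by -1.26 ± 0.21 and -2.27 ± 0.21, in 4T1 and 66cl4. Ptprb, the phosphatase that restrains Tek, and Ramp2, an accessory protein of the adrenomedullin receptor, also fell in both, with differences of -1.52 and -1.52 in 4T1 and -1.24 and -1.79 in 66cl4.

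Flt1, a VEGF receptor that also acts as a decoy for VEGF, did not follow the other receptors. Its signals were 8.33, 7.79 and 7.75 on the 67NR arrays, 6.89, 6.13 and 6.65 on the 66cl4 arrays and 7.77, 8.92 and 9.38 on the 4T1 arrays. The 66cl4 arrays were lowest and overlapped neither other line, whereas array 1 of 4T1 lay within the 67NR range and arrays 2 and 3 of 4T1 lay above it. The difference from 67NR was 0.73 ± 0.37 (adjusted p 0.149) in 4T1, a test that was not passed, and -1.40 ± 0.37 (adjusted p 0.0151) in 66cl4. In a fit adjusted for scan file number the former was -0.08 (adjusted p 0.935). Without array 1 of 4T1 it was 1.20 (adjusted p 0.00629), and without array 1 of 67NR or array 2 of 66cl4 the latter was not called (adjusted p 0.059 and 0.0581). The arrays carried 4 probe sets for Flt1, and in a fit over all probe sets none was called between 4T1 and 67NR (0.43 to 0.80), and all 4 were called lower in 66cl4 than in 67NR (-1.81 to -1.40).

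Eng, a co-receptor for transforming growth factor beta family ligands, also differed from the other receptors. It gave 9.45, 9.41 and 9.66 on the 67NR arrays, 8.44, 8.45 and 8.36 on the 66cl4 arrays and 9.62, 9.62 and 9.41 on the 4T1 arrays. The 66cl4 arrays lay below all others, and those of 67NR and 4T1 overlapped. The difference was -1.09 ± 0.11 (adjusted p 6.27e-05) in 66cl4, while in 4T1 it was 0.04 ± 0.11 (adjusted p 0.778). In a fit over all probe sets, a second, dimmer probe set for Eng gave 0.69 (adjusted p 0.00508) between 4T1 and 67NR, so the probe sets disagreed there.

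The receptor subunit Calcrl, which pairs with Ramp2, and S1pr1, the sphingosine-1-phosphate receptor, had the smallest differences among the receptors in 66cl4. Calcrl differed by -1.25 ± 0.30 (adjusted p 0.00796) in 4T1 and by -0.36 ± 0.30 (adjusted p 0.379) in 66cl4. S1pr1 differed by -0.63 ± 0.16 (adjusted p 0.0101) in 4T1 and by -0.48 ± 0.16 (adjusted p 0.0373) in 66cl4. The S1pr1 call in 66cl4 was lost when any of 5 arrays was left out, array 1 of 67NR, arrays 1, 2 and 3 of 66cl4 or array 2 of 4T1 (adjusted p 0.0503 to 0.11), and without array 1 of 67NR the difference was -0.31.

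All 5 transcription factors fell in 4T1, and 4 of 5 fell in 66cl4. Erg, an ETS factor that maintains endothelial identity, had signals of 7.06, 6.90 and 7.14 on the 67NR arrays, 4.28, 5.01 and 4.90 on the 66cl4 arrays and 4.99, 5.23 and 5.44 on the 4T1 arrays. The 67NR arrays were highest, and in 66cl4 only 1 of 3 arrays exceeded the array's background, the brightest of 27 bacterial control probe sets (4.83 to 5.08). Erg differed from 67NR by -1.81 ± 0.19 (adjusted p 6.77e-05) in 4T1 and -2.30 ± 0.19 (adjusted p 2.24e-05) in 66cl4. In the fit over all probe sets its second, dimmer probe set was not called, at -0.08 (adjusted p 0.683) and -0.20 (adjusted p 0.31).

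Fli1, an ETS factor of endothelium and of blood cells, had signals of 8.49, 8.76 and 8.74 on the 67NR arrays, 7.84, 8.40 and 8.41 on the 66cl4 arrays and 6.86, 7.08 and 6.90 on the 4T1 arrays. The 4T1 arrays were lowest and lay well apart, while the highest 66cl4 array came close to the lowest 67NR array without overlapping it. It fell by 1.71 ± 0.16 (adjusted p 3.46e-05) in 4T1, and in 66cl4 the difference was -0.44 ± 0.16 (adjusted p 0.0603). The latter was called without array 3 of 66cl4 (adjusted p 0.0494). It was also called with quantile normalization (-0.51, adjusted p 0.0223) and with the replicate number as a block (-0.44, adjusted p 0.0288). The SoxF factors Sox7, Sox17 and Sox18, which act in vessel formation and arterial identity, fell together. Their differences from 67NR were -1.15, -1.74 and -1.76 in 4T1 and -1.64, -1.38 and -1.97 in 66cl4.

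Vwf, the clotting glycoprotein stored in endothelial cells and platelets, was the exception among the remaining 4 genes. Its signals were 5.84, 5.23 and 5.73 on the 67NR arrays, 5.92, 6.22 and 6.45 on the 66cl4 arrays and 6.21, 6.05 and 6.17 on the 4T1 arrays. The 67NR arrays were lowest and overlapped neither other line, and all signals lay little above the background of 4.83 to 5.08. Vwf rose by 0.54 ± 0.18 (adjusted p 0.0368) in 4T1 and by 0.60 ± 0.18 (adjusted p 0.0268) in 66cl4. The call in 4T1 was lost when any of 6 arrays was left out, arrays 2 and 3 of 67NR, array 2 of 66cl4 or any 4T1 array (adjusted p 0.0512 to 0.128), and that in 66cl4 without array 2 of 67NR or arrays 2 and 3 of 66cl4 (adjusted p 0.071 to 0.0948).

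Egfl7, a secreted endothelial matrix protein, and Nos3, the endothelial nitric oxide synthase, fell in both lines. The differences of Egfl7 were -1.11 in 4T1 and -1.73 in 66cl4, and those of Nos3 were -0.71 and -1.52. Myct1 was not called in any comparison, at -0.29 ± 0.14 (adjusted p 0.123) in 4T1 and -0.27 ± 0.14 (adjusted p 0.151) in 66cl4, and it passed in 4T1 (-0.42, adjusted p 0.0209) without array 3 of 4T1. Its dimmer probe sets disagreed with the brightest, and in the fit over all probe sets they gave -1.19 and -1.21 in 4T1 and -1.44 and -1.23 in 66cl4, with adjusted p of 0.00296, 0.0394, 0.00121 and 0.0424.

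Promoters are shown for 5 of the genes, which cover some of the patterns found but not all. Robo4 and Emcn fell in both lines, Esm1 fell most, and Flt1 and Apln fell in 66cl4 but were not called in 4T1. The sequences are the 250 bases before the RefSeq start in GRCm38.p6, read 5′ to 3′ on the gene's strand, at chr9:37401722-37401971 (+) for Robo4, chr3:137340828-137341077 (+) for Emcn, chr13:113209409-113209658 (+) for Esm1, chr5:147726012-147726261 (-) for Flt1 and chrX:48034854-48035103 (-) for Apln. Capitals mark CAGGAA or its reverse complement TTCCTG, a spelling of the ETS core. Other stretches with GGAA on either strand, which the Flt1 sequence also holds, are not marked.
Robo4: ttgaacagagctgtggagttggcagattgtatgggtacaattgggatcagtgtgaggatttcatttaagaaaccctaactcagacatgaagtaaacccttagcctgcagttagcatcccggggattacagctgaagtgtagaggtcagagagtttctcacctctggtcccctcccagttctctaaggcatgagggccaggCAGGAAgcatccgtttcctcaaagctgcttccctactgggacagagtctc
Emcn: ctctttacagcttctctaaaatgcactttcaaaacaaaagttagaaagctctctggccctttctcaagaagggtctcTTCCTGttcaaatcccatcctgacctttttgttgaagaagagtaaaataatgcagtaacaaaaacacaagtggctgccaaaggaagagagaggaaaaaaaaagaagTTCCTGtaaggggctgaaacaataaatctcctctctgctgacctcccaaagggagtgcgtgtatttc
Esm1: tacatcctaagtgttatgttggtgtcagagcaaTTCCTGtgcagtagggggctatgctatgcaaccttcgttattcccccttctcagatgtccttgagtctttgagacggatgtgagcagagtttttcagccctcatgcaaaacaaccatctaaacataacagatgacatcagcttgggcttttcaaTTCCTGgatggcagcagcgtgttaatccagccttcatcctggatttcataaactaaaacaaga
Flt1: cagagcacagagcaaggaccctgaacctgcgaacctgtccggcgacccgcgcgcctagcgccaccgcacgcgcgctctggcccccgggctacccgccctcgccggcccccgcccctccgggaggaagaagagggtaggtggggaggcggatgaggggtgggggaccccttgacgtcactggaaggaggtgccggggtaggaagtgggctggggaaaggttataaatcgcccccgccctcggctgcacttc
Apln: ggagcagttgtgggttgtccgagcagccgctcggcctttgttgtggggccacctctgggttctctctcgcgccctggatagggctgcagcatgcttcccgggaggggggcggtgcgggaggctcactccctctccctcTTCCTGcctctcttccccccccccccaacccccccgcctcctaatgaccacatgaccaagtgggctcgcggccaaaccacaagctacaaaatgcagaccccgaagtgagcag
The RefSeq promoter table held 19 of the 36 genes. Of these, 11 had CAGGAA on either strand (57.9%), against 25.4% of 27025 promoters of the same length. They were Cd34, Egfl7, Calcrl, Emcn, Tek, Tie1, Robo4, Myct1, Clec14a, Esm1 and Apln. Another ETS spelling, CCGGAA, was in 1 (5.26% against 12.2%), the SOX core ACAAT in 6 (31.6% against 28.3%) and the GATA core AGATAA in 1 (5.26% against 10.3%). CAGGAA and CCGGAA share the letters GGAA, and the matches describe letters only, with no test.

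Tip-cell genes were described apart from the other vessel genes. Of 4, 3 fell in 4T1 (median -1.09) and 4 fell in 66cl4 (median -1.79). Esm1, a proteoglycan that VEGF induces in tip cells, showed the largest difference of all 35 genes. Its signals were 9.80, 9.61 and 9.67 on the 67NR arrays, 5.35, 5.69 and 6.41 on the 66cl4 arrays and 5.20, 6.64 and 7.80 on the 4T1 arrays. The 67NR arrays lay close together and far above the rest, while the 4T1 arrays spread over 2.60 log2 units and covered the 66cl4 range.

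Esm1 fell by 3.15 ± 0.53 (adjusted p 0.0012) in 4T1, or 8.87-fold, and by 3.88 ± 0.53 (adjusted p 0.000423) in 66cl4, or 14.7-fold. Without array 1 of 4T1 the difference in 4T1 was -2.48, or 5.58-fold, and without array 3 of 4T1 it was -3.78, or 13.7-fold. With the hybridization controls as a covariate it was -2.55 and was not called (adjusted p 0.0992). Dll4, the Notch ligand of tip cells and arteries, gave 8.29, 8.02 and 8.39 on the 67NR arrays, 6.19, 5.90 and 6.31 on the 66cl4 arrays and 7.05, 7.05 and 7.08 on the 4T1 arrays. No 2 lines overlapped, and the order was 67NR, 4T1, 66cl4. Dll4 fell by 1.17 ± 0.13 (adjusted p 0.000112) in 4T1 and by 2.10 ± 0.13 (adjusted p 4.52e-06) in 66cl4.

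Angpt2, the angiopoietin that loosens vessels, had signals of 8.74, 8.54 and 8.59 on the 67NR arrays, 7.34, 6.69 and 7.41 on the 66cl4 arrays and 7.27, 7.61 and 7.94 on the 4T1 arrays. The 67NR arrays were highest, and those of the other lines overlapped. It fell by 1.01 ± 0.21 (adjusted p 0.00403) in 4T1 and by 1.48 ± 0.21 (adjusted p 0.000579) in 66cl4. Apln, the ligand of the apelin receptor, gave 8.56, 8.52 and 8.65 on the 67NR arrays, 7.60, 7.81 and 7.73 on the 66cl4 arrays and 8.64, 8.43 and 8.63 on the 4T1 arrays. Its 66cl4 arrays were lowest, and 67NR and 4T1 overlapped: the difference was -0.87 ± 0.10 (adjusted p 2e-04) in 66cl4 and -0.01 ± 0.10 (adjusted p 0.941) in 4T1.

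The lymphatic pair gave one testable gene. Prox1 was at 3.50, 3.50 and 3.62 on the 67NR arrays, 3.54, 3.59 and 3.47 on the 66cl4 arrays and 3.49, 3.44 and 3.63 on the 4T1 arrays, below background on all 9 arrays. Flt4, the VEGF-C receptor that tumour blood vessels also carry, had signals of 7.60, 7.10 and 7.30 on the 67NR arrays, 5.83, 5.77 and 5.61 on the 66cl4 arrays and 6.81, 6.56 and 7.07 on the 4T1 arrays. Its 3 lines did not overlap, in the order 67NR, 4T1, 66cl4. It fell by 1.59 ± 0.16 (adjusted p 7.32e-05) in 66cl4 and by 0.52 ± 0.16 (adjusted p 0.0285) in 4T1, a call that was lost without array 1 or 3 of 67NR or array 1 or 2 of 4T1 (adjusted p 0.0596 to 0.103) and that a second probe set did not make in the fit over all probe sets (-0.35, adjusted p 0.0896).

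Between the 4T1 and 66cl4 tumours the genes divided. There 41.3% of all tested genes were called, and of the 35, 14 were higher in 4T1, against 17.9% of all tested genes, and 4 were lower, against 23.4%, with a median of 0.45 against -0.03. Signals did not overlap for 19, where 50.9% of all tested genes did not. Flt1 had the largest difference, 2.14 ± 0.37 (adjusted p 0.00136), or 4.39-fold, and all 4 of its probe sets were called (1.95 to 2.34). Next came Eng at 1.14 ± 0.11 (adjusted p 3.33e-05) and Emcn at 1.12 ± 0.15 (adjusted p 0.00034), the latter with signals of 6.95, 6.99 and 7.33 in 66cl4 and 8.12, 8.29 and 8.20 in 4T1, which did not overlap.

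Flt4 (1.07), Tie1 (1.02), Dll4 (0.93), Apln (0.85), Nos3 (0.80), Kdr (0.73) and Robo4 (0.50) were also higher in 4T1. So were Plvap, Egfl7, Sox7 and Esam, at 0.78, 0.62, 0.49 and 0.45, but each of these 4 calls was lost when 1 array was left out. For Plvap these were array 2 of 66cl4 and arrays 2 and 3 of 4T1 (adjusted p 0.0514 to 0.055), and for Egfl7 arrays 1 and 2 of 66cl4 and array 2 of 4T1 (0.0568 to 0.0596). For Sox7 they were array 1 of 67NR, arrays 1 and 2 of 66cl4 and any 4T1 array (0.0643 to 0.159), and for Esam array 2 of 67NR, arrays 1 and 2 of 66cl4 and arrays 2 and 3 of 4T1 (0.0572 to 0.143).

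Fli1, Cd34, Calcrl and Cd93 were lower in 4T1 than in 66cl4. Fli1 differed by -1.27 ± 0.16 (adjusted p 0.000232) and Cd93 by -0.75 ± 0.17 (adjusted p 0.00543). In the fit over all probe sets the dimmer tested probe sets of Cd93 gave -0.76, -0.93 and -0.08 (adjusted p 0.00218, 0.0131 and 0.832). Between 66cl4 and 67NR the same probe sets gave -1.03, -0.67 and -0.78 (adjusted p 0.000478, 0.0591 and 0.0305). Cd34 differed by -0.97 ± 0.26 (adjusted p 0.0148), and by -0.61 without array 3 of 66cl4. Calcrl differed by -0.89 ± 0.30 (adjusted p 0.0382), a call lost when any of 6 arrays was left out, arrays 2 and 3 of 67NR, arrays 2 and 3 of 66cl4 or arrays 1 and 2 of 4T1 (adjusted p 0.053 to 0.126). Its difference was -0.55 without array 1 of 4T1.

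Leaving out array 1 of 4T1 removed the calls of Calcrl and Sox7 given above and added others. Without this array Esm1 was 1.40 higher in 4T1 than in 66cl4 (adjusted p 0.0136), against 0.73 ± 0.53 (adjusted p 0.312) with all arrays. Angpt2, Pecam1 and Icam2 passed too without it (adjusted p 0.0439, 0.0397 and 0.0451). Erg passed without it or without array 2 of 66cl4 (adjusted p 0.0398 to 0.0451), and Ptprb was called lower without array 3 of 4T1 (adjusted p 0.0205). Cdh5 itself differed by only 0.15 ± 0.14 (adjusted p 0.447). Relative to Cdh5 on the same array, a comparison chosen after the values were seen, 10 of the other 34 genes were higher in 4T1 and 4 lower, against 10% and 20.5% of all genes, and Flt1 stood at 1.99 ± 0.29.

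**Figure D3:**
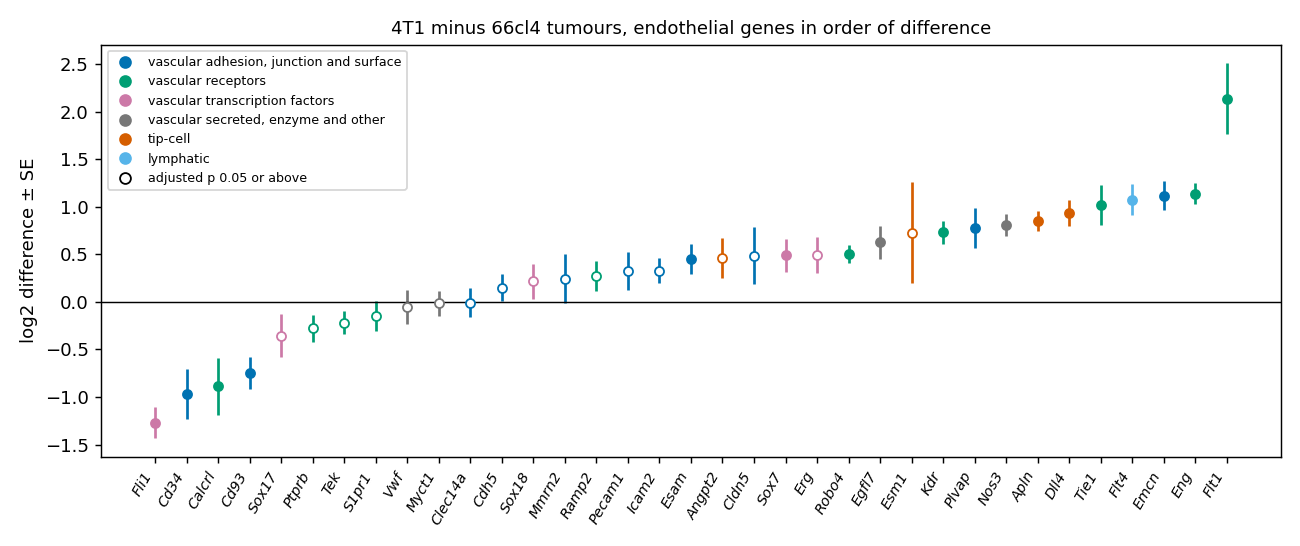
Log2 differences between 4T1 and 66cl4 tumours with SE bars (n = 3 mice per line), genes in order of the difference and coloured by role, with open circles for an adjusted p of 0.05 or above. Flt1 stands at the top with 2.14 and Fli1 at the bottom with -1.27.

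Over the 3 comparisons, 28 of the 35 genes were lower in both 66cl4 and 4T1 than in 67NR. Of all tested genes 8.39% were. The order of means was 67NR, 4T1, 66cl4 for 22 genes and 67NR, 66cl4, 4T1 for 10, and neighbours in these orders often did not differ beyond their spread, since 13 genes were called in all 3 comparisons, as were 9.46% of all tested genes. Those that fell stepwise from 67NR through 4T1 to 66cl4 were Esam, Emcn, Plvap, Kdr, Tie1, Robo4, Sox7, Egfl7, Nos3, Dll4 and Flt4. Cd34 and Cd93 fell stepwise from 67NR through 66cl4 to 4T1, but with the hybridization controls as a covariate the step from 66cl4 to 4T1 was called for neither (-0.56, adjusted p 0.157, and -0.58, adjusted p 0.0617). Under that covariate Calcrl (-0.77, adjusted p 0.182), Egfl7 (0.69, adjusted p 0.0517) and Esam (0.40, adjusted p 0.188) were not called between 4T1 and 66cl4 either, nor, with the scan file number, were Calcrl, Esam, Plvap and Sox7 (adjusted p 0.0522 to 0.0948).

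Ligands and partners of these receptors did not share one course. Of 24 tested angiogenic ligands and co-receptors, 5 were higher and 6 lower in 4T1 than in 67NR, and 3 higher and 9 lower in 66cl4 than in 67NR. Between 4T1 and 66cl4, 8 were higher in 4T1 and 4 lower. The medians were 0.09, -0.39 and 0.31. Over all tested genes the shares higher and lower were 19.4% and 20.5%, 20% and 16%, and 17.9% and 23.4%, in the same order. The counts between 4T1 and 67NR lie near those shares. Notch4, a Notch receptor of endothelium, had differences from 67NR of -2.22 in 4T1 and -2.53 in 66cl4, and Aplnr, the receptor of Apln, of -1.76 and -2.21, all called. The Notch ligands Jag1 and Dll1 were higher in 4T1 than in 66cl4 by 2.15 ± 0.12 (adjusted p 1.16e-06) and 1.94 ± 0.15 (adjusted p 8.26e-06).

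The VEGF ligands were singled out after their values were seen, apart from Vegfc. Vegfa, the ligand of Kdr and Flt1, had signals of 9.02, 9.52 and 8.79 on the 67NR arrays, 6.66, 7.95 and 6.70 on the 66cl4 arrays and 8.50, 9.75 and 10.00 on the 4T1 arrays. Its 66cl4 arrays were lowest, with -2.01 ± 0.44 (adjusted p 0.00562) against 67NR and 2.31 ± 0.44 (adjusted p 0.00218) between 4T1 and 66cl4. Between 4T1 and 67NR it overlapped, at 0.30 ± 0.44 (adjusted p 0.625). Vegfc, a ligand of Flt4, was not above background in 67NR, had means of 7.58 ± 0.42 in 66cl4 and 8.66 ± 0.97 in 4T1 (SD, n = 3), and was at least 13.2-fold higher in 4T1 and at least 6.22-fold higher in 66cl4 than in 67NR (adjusted p 1.81e-05 and 0.000126). These bounds set the brighter mean against the highest bacterial control of each 67NR array. Vegfd, another Flt4 ligand, had means of 6.34 ± 0.15, 6.82 ± 0.62 and 4.89 ± 0.50 in 67NR, 66cl4 and 4T1, with 1 of 3 arrays above background in 4T1. Vegfb, a ligand of Flt1, was higher than in 67NR by 0.49 ± 0.14 (adjusted p 0.019) in 4T1 and by 0.43 ± 0.14 (adjusted p 0.0351) in 66cl4. Pgf, another Flt1 ligand, differed from 67NR by 0.18 ± 0.34 (adjusted p 0.717) in 4T1 and -0.96 ± 0.34 (adjusted p 0.0502) in 66cl4, and between 4T1 and 66cl4 by 1.14 ± 0.34 (adjusted p 0.0224).

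**Figure D4:**
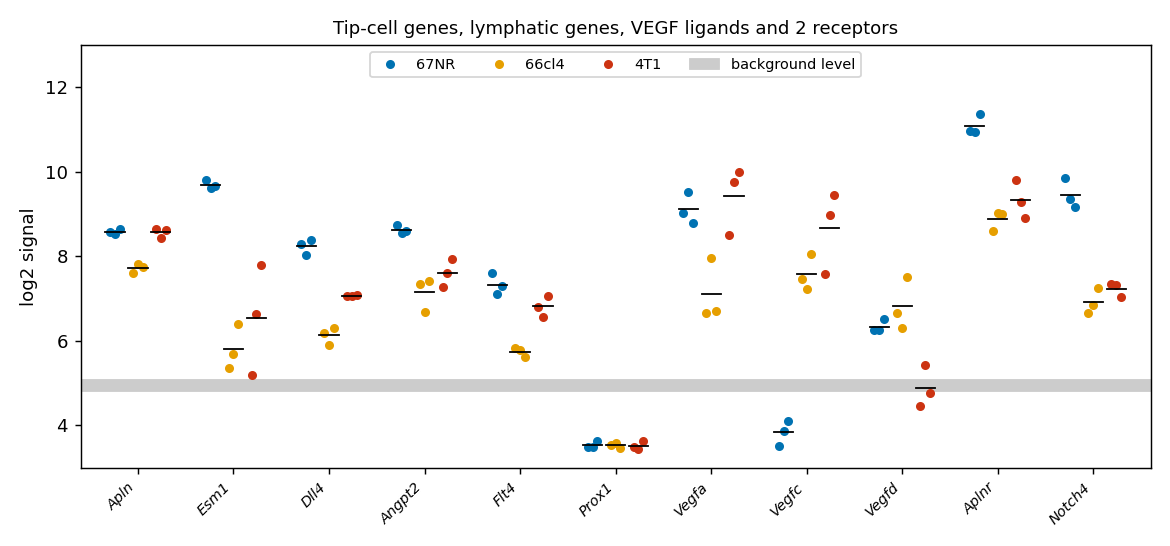
Log2 signals of tip-cell and lymphatic genes and of their ligands and receptors on the 9 arrays, with 1 point per array and the background level drawn for reference. Esm1 is high on all 67NR arrays and spread in 4T1, Prox1 stays below background on every array, and Vegfc is below it in 67NR.

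Of 31 tested endothelial genes outside the 36, 21 were lower and 4 higher in 4T1 (median -1.15) than in 67NR, and 20 were lower and 3 higher in 66cl4 (median -0.79). The shares over all tested genes given with the ligands are also the reference for this list and the lists below. Thrombomodulin, Thbd, fell by 3.58 ± 0.17 (adjusted p 4.55e-07) in 4T1 and 2.47 ± 0.17 (adjusted p 7.94e-06) in 66cl4. Cav1, the caveolin coat protein, fell by 2.97 in 4T1 and differed by -0.08 (adjusted p 0.815) in 66cl4. Procr, the protein C receptor, fell by 2.15 in 66cl4 and rose by 0.82 ± 0.15 (adjusted p 0.00193) in 4T1. Between 4T1 and 66cl4 this list gave 6 higher and 6 lower, with Procr at 2.97 and Cav1 at -2.88. Those counts lie near the 17.9% higher and 23.4% lower over all tested genes.

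Of 20 further endothelial regulators, 13 were lower and 2 higher in 4T1 than in 67NR, and 9 lower and 2 higher in 66cl4. The transcription factors Gata2 and Meox2 fell in 4T1, with differences of -2.15 and -2.10. Gata2, which mast cells also express, fell by 1.93 in 66cl4, while Foxf1 rose by 1.99 there. Meox2 was lower in 66cl4 too, with means of 7.82 in 67NR and 6.01 in 66cl4 and no overlap. The flow-responsive factors Klf2 and Klf4 were lower in 4T1 than in 66cl4, with differences of -2.50 and -2.71, where the list had 5 higher and 8 lower.

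Of 12 further tip-cell genes, 6 were lower and 2 higher in 4T1 than in 67NR, 7 lower and 1 higher in 66cl4, and 9 higher and 1 lower in 4T1 than in 66cl4 (median 1.05). Igfbp3, an insulin-like growth factor binding protein, fell by 3.65 in 66cl4. Unc5b, a netrin receptor, was 1.69 higher in 4T1 than in 66cl4. Of 7 further lymphatic genes, 4 were lower in 4T1 than in 67NR, and 2 lower and 3 higher in 66cl4. Lyve1, the hyaluronan receptor of lymphatic endothelium and of some macrophages, was called higher in 66cl4 (mean 12.43 ± 0.28, SD, n = 3) than in 67NR, where 1 of 3 arrays was above background (3.47, 4.63 and 6.53). Pdpn, the podoplanin of lymphatic and stromal cells, was lower than in 67NR in both lines, with differences of -3.91 in 4T1 and -2.20 in 66cl4.

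Markers of other cells moved with the lines, and their part in the endothelial results was not tested. Some lists share genes, such as Gata2, which is among both the further regulators and the mast cell markers. The list counts are therefore not fully separate. Of 13 pericyte markers, 9 fell in 4T1 and 12 in 66cl4 relative to 67NR. The log2 of their summed level was 13.29 to 13.41 in 67NR, 11.41 to 11.98 in 66cl4 and 11.00 to 11.58 in 4T1, and Kcnj8, a potassium channel of pericytes, differed by -2.82 and -3.00. Of 10 mast cell markers, 9 fell in 4T1 and 10 in 66cl4, with summed levels of 14.09 to 14.58, 9.28 to 9.58 and 8.96 to 9.38 in 67NR, 66cl4 and 4T1, and with Ms4a2 and Fcer1a not above background in 66cl4 and 4T1.

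Of 17 macrophage markers, 13 fell in 4T1, and 5 rose and 3 fell in 66cl4, with summed levels of 15.92 to 16.06, 16.00 to 16.30 and 15.10 to 15.27 in 67NR, 66cl4 and 4T1, the order also used for the lists that follow. Of 11 T and NK cell markers, 1 rose and 4 fell in 4T1 and 11 fell in 66cl4 (11.26 to 11.83, 10.11 to 10.46 and 11.02 to 11.90). Of 9 neutrophil markers, 5 rose in 4T1, and in 66cl4 the smallest adjusted p was 0.0662, for Csf3r (10.80 to 11.68, 10.66 to 11.49 and 12.47 to 12.99). Of 7 markers of platelets and megakaryocytes, 1 fell in 4T1 and 1 rose and 1 fell in 66cl4 (10.55 to 11.17, 11.86 to 12.03 and 9.70 to 10.86).

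Of 12 fibroblast markers, 7 rose and 3 fell in 4T1 and 5 rose and 2 fell in 66cl4 (12.45 to 12.92, 13.18 to 13.98 and 14.37 to 15.60). Of 5 adipocyte markers, 2 fell in each (12.29 to 12.61, 9.84 to 10.85 and 8.89 to 9.92). That sum followed mostly its brightest gene, Fabp4, with means of 12.32, 9.59 and 8.61. Adipoq, Cidec and Lep were not above background in 67NR, and Adipoq exceeded it on 1 array of 66cl4. Of 12 epithelial markers, 11 rose in 4T1 and 1 in 66cl4 (9.14 to 9.27, 12.89 to 13.24 and 14.92 to 15.20), and Cdh1, Krt7, Cldn7 and Esrp1 were not above background in 67NR and 66cl4. In 66cl4 the epithelial sum followed mostly Krt8 (mean 13.01) and the platelet and megakaryocyte sum mostly Pf4 (mean 11.77). Summed levels add unlogged signals, so the brightest gene weighs most.

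**Figure D5:**
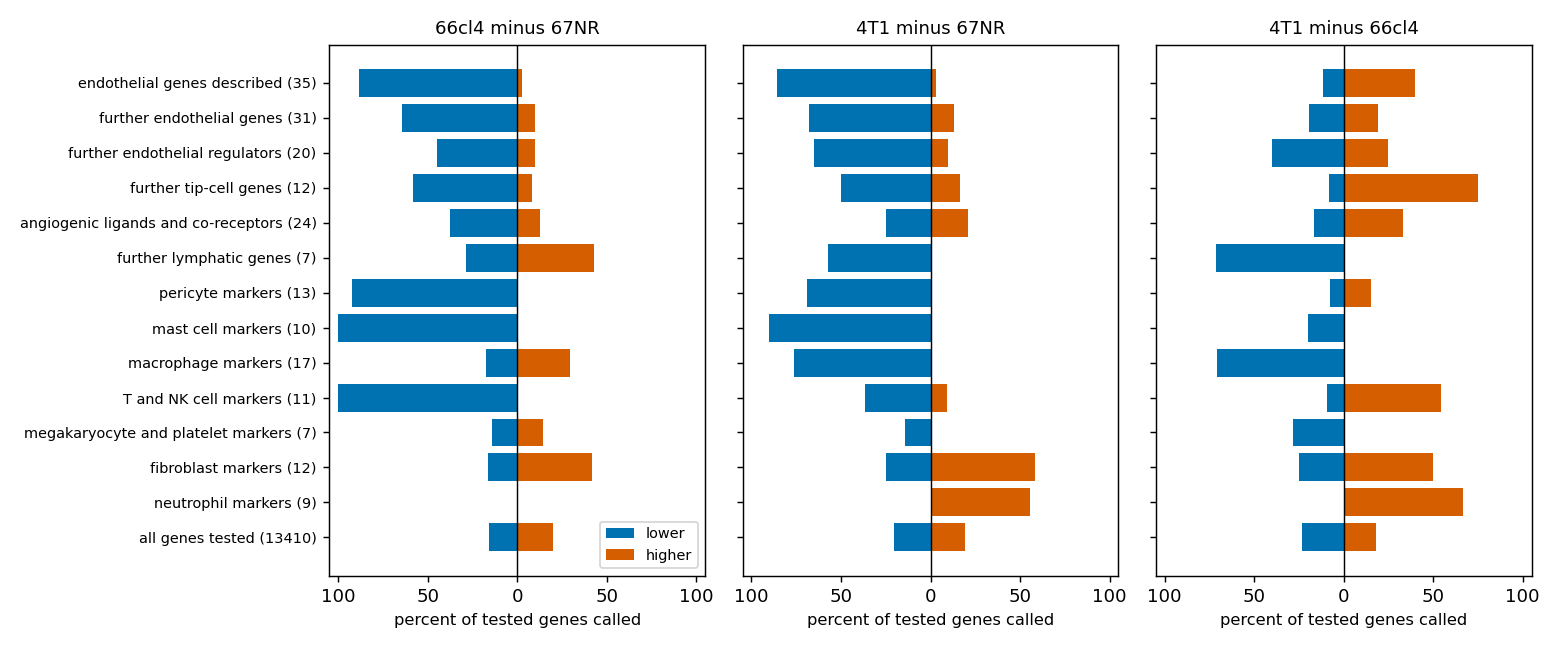
Percent of tested genes called higher and lower in each comparison, for the endothelial genes, the lists of related genes and other cell types, and all tested genes. Some lists share genes. The endothelial genes described, the further endothelial genes, the pericyte markers and the mast cell markers are mostly lower than in 67NR in both other lines. Of the further endothelial regulators 9 of 20 are lower in 66cl4, and the ligand list has calls in both directions.

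Technical measures also moved with the lines. The mean signal of 18 hybridization controls was 10.87 to 11.47 on the 67NR arrays, 10.64 to 11.10 on the 66cl4 arrays and 10.30 to 10.72 on the 4T1 arrays. The number in the scan's file name was higher for all 67NR arrays than for any array of the other lines, and no arrays share one, so no comparison within a scan group could be made. With the hybridization controls as a covariate 20 of the 35 genes were lower in 4T1 than in 67NR, against 7.46% of all tested genes, and with the scan file number 24 were, against 8.89%. Between 66cl4 and 67NR, 30 were lower under each covariate, against 12.3% and 11.9% of all.

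The genes that lost their call between 4T1 and 67NR under both covariates were Calcrl, Egfl7, Nos3, S1pr1, Sox7, Tie1 and Vwf. Some differences stayed as large: with the hybridization controls S1pr1 was at -0.80 (without a covariate -0.63) and Vwf at 0.65 (0.54). Others shrank: with the scan file number Tie1 was at -0.69 (-1.26) and Nos3 at -0.47 (-0.71). Calcrl, Egfl7 and Sox7 were at -1.05, -0.98 and -0.85 with the hybridization controls. Under the hybridization controls alone Angpt2 (-0.99), Esm1 (-2.55), Mmrn2 (-1.29) and Plvap (-1.23) also lost the call.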

How the data were processed

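Total RNA from laser-captured tumour tissue of 9 mice was measured on 9 single-colour Affymetrix arrays, 1 per mouse. The deposited log2 values, 45101 probe sets on each array, ran from 2.42 to 14.8, and the scale was inferred from that range. Their summarisation and normalization by the authors were not given in the sources used here. No further scaling was applied.

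Probe sets were named from the platform annotation: 34958 had 1 gene, 932 several and 9211 none listed. Symbols were updated through RefSeq GRCm38.p6, which 34754 matched. The brightest probe set stood for a gene. Of the resulting 18194 genes, 9012 had several. The filter kept 13410 and left out 4784.

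The 9 arrays entered a single group-means model (limma 3.58.1, run under R 4.3.3, with moderated variances, 6 residual and 3.63 prior degrees of freedom, two-sided), and p-values were adjusted within a comparison over all genes. A separate fit over all probe sets compared probe sets of a gene. The fit was tested on simulated data with known changes. With 3 mice against 3, no exact permutation p can be under 0.1. The number of arrays limits the precision. Not above background means at or below the brightest bacterial control on each of a line's 3 arrays. Alternatives covered normalization, filters, probe set choice, covariates, the replicate number as a block and leaving out each array.

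Same-numbered arrays of different lines had deviations correlated at -0.115 to 0.159, not all above 0.1, so the numbers were not taken to pair mice. The genes and lists were chosen with earlier results of these data known. All 36 genes are named; of other lists, up to 3 genes with the smallest p in the comparison described are named, with any exception stated in the text.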

Additional observations from a re-analysis of the deposited data

How the results depend on the processing

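No called difference of the 35 genes changed sign under an alternative that was run. Of the differences that were not called, 5 did: Flt1 and Apln between 4T1 and 67NR, and Clec14a, Vwf and Myct1 between 4T1 and 66cl4. Flt1 was at 0.73, or -0.08 when adjusted for scan file number, and the other 4 were at -0.06 to -0.01. Over all genes, 5348 were called between 4T1 and 67NR, against 2661 with the scan file number and 2151 with the hybridization controls as a covariate. The 1 gene called higher there (Vwf) became 0 with the 60th percentile filter and with either covariate, and 2 with the mean of probe sets. The 1 called higher in 66cl4 than in 67NR became 0 with that filter and with the hybridization controls. The 4 lower in 4T1 than in 66cl4 became 1 with the hybridization controls. The stricter filter leaves Vwf out. With the mean of probe sets the gene added was Eng (0.37, adjusted p 0.027). With the hybridization controls Calcrl, Cd34 and Cd93 lost their calls between 4T1 and 66cl4. Why calls changed under the covariates was not tested.

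Leaving out each array in turn gave 4430 to 5257 genes called between 4T1 and 67NR (29 to 31 of the endothelial genes lower, 0 to 1 higher), 3819 to 5215 between 66cl4 and 67NR (29 to 31 lower, 0 to 1 higher) and 4614 to 5391 between 4T1 and 66cl4 (10 to 18 higher, 3 to 5 lower). With the replicate number as a block, 5058, 4504 and 5180 genes were called. The counts of endothelial genes stayed at 30 lower and 1 higher, 31 and 1, and 14 higher and 4 lower, though 2 calls were lost and 2 gained.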
